A study of Drosophila melanogaster with 3 samples.

Results

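The actin gene family of Drosophila melanogaster has 6 members, the cytoplasmic actin genes Act5C and Act42A and the muscle actin genes Act57B, Act79B, Act87E and Act88F, and it is described here by its binding of GAGA factor in embryos. A peak was counted at an actin gene when its summit, the base of highest signal, lay in the gene body or within 2 kb of it. By that rule 5 of the 4900 peaks in the authors' optimal list and 20 of the 30000 peaks in their longer pooled list lay at actin genes. The series mapped GAGA factor, the product of Trl, by ChIP-seq, in which DNA bound by a protein is recovered with an antibody and sequenced. All libraries came from 1 group, strain Trl-MiMIC-GFP, a single fly line in which an eGFP exon inserted in an intron makes a fusion of Trl with GFP, and the antibody was against GFP. Mixed-sex whole embryos aged 0 to 24 h were used in 3 biological replicates, with no second genotype or treatment. Whole embryos hold all embryonic cell types, so binding in few cells and weak binding in many cannot be told apart, and no RNA was measured.

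GAGA factor is a zinc-finger protein that binds repeats of GA on DNA, opens chromatin at promoters and is known for its role at heat-shock and developmental genes. Actins are the subunits of actin filaments. Act5C and Act42A are expressed in most cells and form the cytoskeleton. Act57B and Act87E serve the body-wall muscles of embryo and larva, Act79B serves leg and some thoracic muscles of the adult, and Act88F serves the adult indirect flight muscles.

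Most optimal peaks of the family, 3 of 5, lay at Act5C, and their sequences are shown because they include the strongest peak of the family and the only optimal summits within 500 bp of an actin start. Sequences are from the RefSeq Release 6 genome (dm6), plus strand, 5′ to 3′, with each GAGAG and its reverse complement CTCTC in capitals. The peak at rank 210 is shown over chrX:5899980-5900270, the peak at rank 2677 over chrX:5900270-5900470 and the peak at rank 3500 over chrX:5901726-5901956. Rank 1 is the highest signal in the pooled list.
Act5C peak rank 210: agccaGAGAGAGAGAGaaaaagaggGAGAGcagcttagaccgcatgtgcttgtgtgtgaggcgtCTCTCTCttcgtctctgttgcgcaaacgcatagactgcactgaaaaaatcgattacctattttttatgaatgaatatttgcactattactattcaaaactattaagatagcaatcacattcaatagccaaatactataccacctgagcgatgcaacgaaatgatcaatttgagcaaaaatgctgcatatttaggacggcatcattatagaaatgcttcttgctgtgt
Act5C peak rank 2677: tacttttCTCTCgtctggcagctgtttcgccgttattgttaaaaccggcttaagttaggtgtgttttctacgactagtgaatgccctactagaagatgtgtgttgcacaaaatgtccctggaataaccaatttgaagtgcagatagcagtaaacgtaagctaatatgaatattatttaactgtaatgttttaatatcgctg
Act5C peak rank 3500: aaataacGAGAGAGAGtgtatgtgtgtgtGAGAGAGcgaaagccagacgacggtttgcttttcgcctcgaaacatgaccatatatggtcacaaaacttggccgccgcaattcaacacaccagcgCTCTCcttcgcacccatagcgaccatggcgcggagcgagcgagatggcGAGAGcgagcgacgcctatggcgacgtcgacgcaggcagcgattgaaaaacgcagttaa
The peak at rank 210 held no GAGAG within 100 bp of its summit. Before the summit lay 7 matches, counted with overlaps, in a stretch of 66 bp. The stretch was 120 to 185 bp from the summit and 876 to 811 bp before the Act5C start. Of these matches, only those centred at -815 and -813 bp from that start lay in the called peak, X:5900015-5900322. The others lay outside it, and the sequence shown begins before the peak does. The peak at rank 2677 held 1 match within 100 bp of its summit and the peak at rank 3500 held 3.

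At the muscle actin genes, the peak at rank 4006, 159 bp past the end of Act87E, was the only optimal peak at a muscle actin gene and is shown over chr3R:13428434-13428634. The 100 bases before the starts of Act79B (chr3L:21985110-21985209) and Act88F (chr3R:15439869-15439968) are shown because neither gene had a pooled peak in its window. All are dm6, plus strand, which is the coding strand of these 3 genes, with GAGAG and CTCTC in capitals.
Act87E peak rank 4006: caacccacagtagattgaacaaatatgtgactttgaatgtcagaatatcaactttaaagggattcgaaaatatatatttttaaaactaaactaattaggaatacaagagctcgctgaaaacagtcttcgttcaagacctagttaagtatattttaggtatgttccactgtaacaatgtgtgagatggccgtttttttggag
Act79B upstream: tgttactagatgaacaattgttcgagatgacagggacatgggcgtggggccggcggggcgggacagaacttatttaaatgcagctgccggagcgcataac
Act88F upstream: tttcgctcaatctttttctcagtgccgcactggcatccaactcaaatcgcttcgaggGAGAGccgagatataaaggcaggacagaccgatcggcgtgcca
The Act87E peak held no GAGAG within 250 bp of its summit. The Act88F stretch held 1 GAGAG, 43 bp before the start, at a gene with no pooled peak.

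An optimal peak lay at Act5C, Act42A and Act87E, which is 3 of the 6 members. The same rule took in 37.7% of all 13945 protein-coding genes (95% Clopper-Pearson interval 36.9% to 38.5%) and 38.7% of the 4344 genes between 1780 and 4539 bp, the lengths of the shortest and longest actin genes. For 6 genes a count of 3 is near this background. A pooled peak lay at 4 of the 6 members against 79.1% of all genes. Act79B and Act88F had none, as did 17.7% of the genes of like length. Act5C was the only member with 3 or more optimal peaks, which 4.43% of all genes had. It had 8 pooled peaks where genes of like length had a median of 2, and 39 of those genes (0.898%) had 8 or more. At 4539 bp Act5C is itself the upper end of that range, so those genes have windows no wider than its own. Some Act5C peaks overlap, namely those at ranks 210 and 2677 and those at ranks 3500 and 5217. These counts are therefore of summits, not of separate regions.

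**Figure D1:**
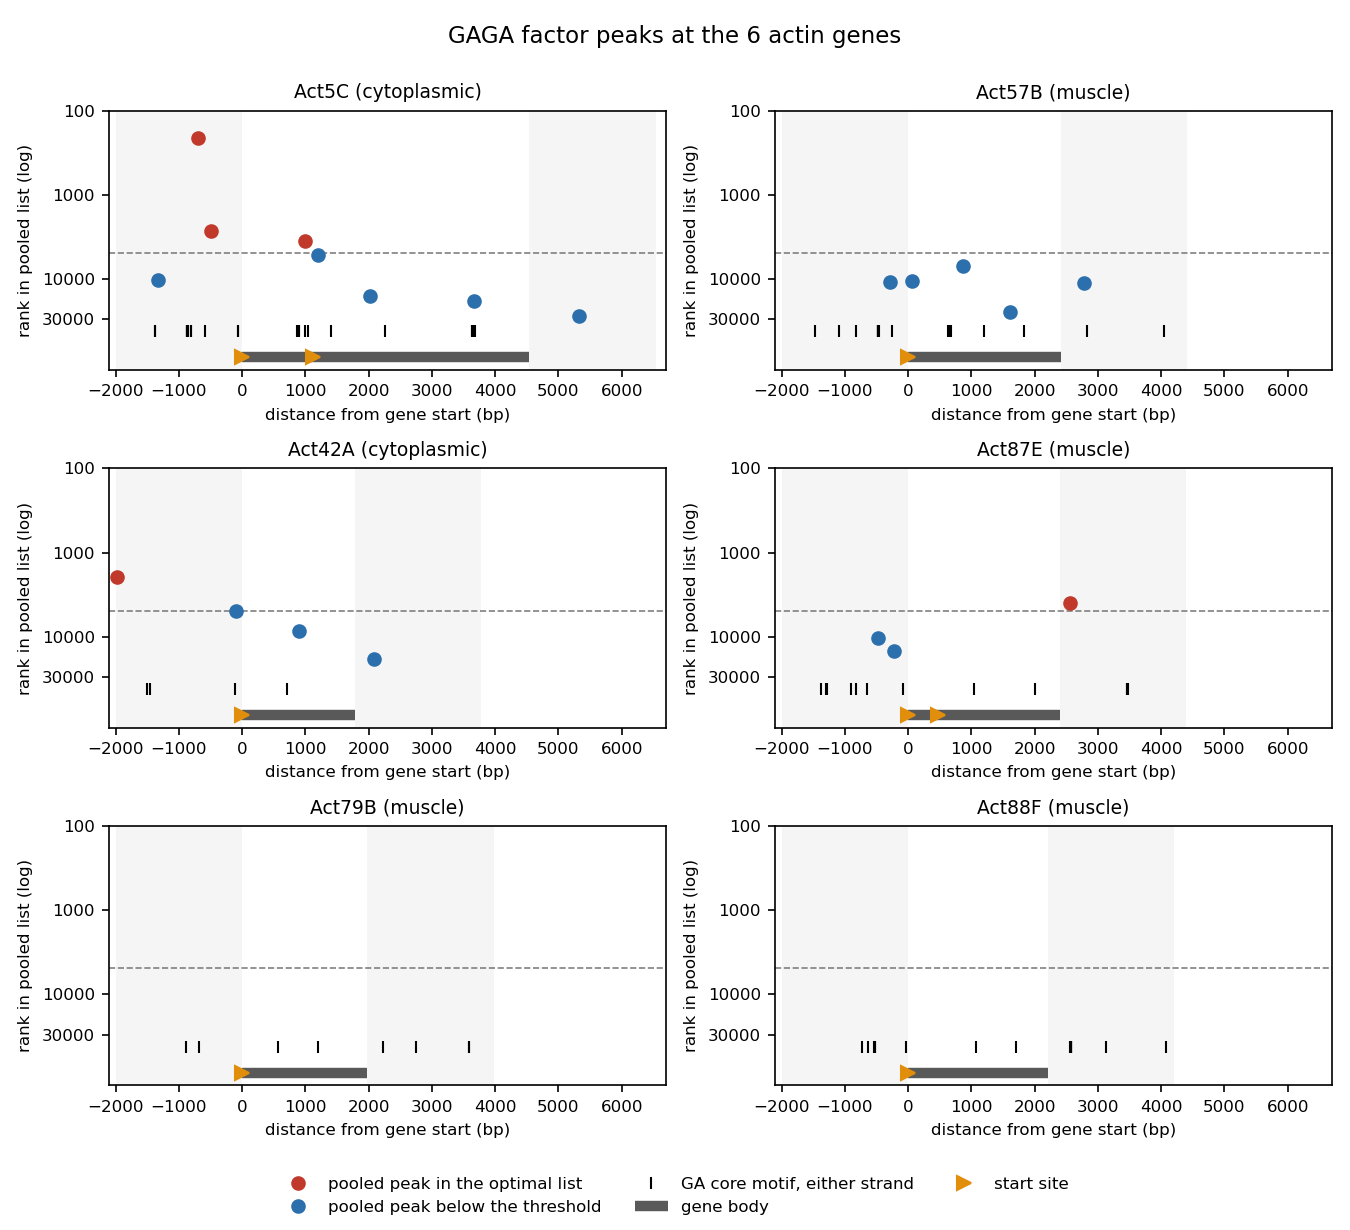
Pooled GAGA factor peaks at each actin gene by distance of the summit from the gene start in bp (x axis) and by rank in the pooled list on a log axis with rank 1 at the top (y axis); red points are in the optimal list, the dashed line is its last rank, 4900, shaded areas are the 2 kb flanks, ticks mark GAGAG on either strand and triangles mark start sites. Red points stand upstream of and inside Act5C, at the outer edge of the Act42A window and past the end of Act87E, and the panels of Act79B and Act88F hold ticks but no point.

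Among the cytoplasmic actin genes, Act5C (FBgn0000042, X:5900861-5905399, plus strand) carried the strongest peak of the family. It has a distal start site at 5900861 and a proximal one at 5901982. The strongest peak (X:5900015-5900322, summit 5900170) ranked 241, 162 and 234 in replicates 1, 2 and 3. All replicates placed it close to the top, at a percentile of 99.3 ± 0.146 (SD, n = 3), where 100 is the top of a list of 30000. Its summit in the replicates lay -13, 12 and 4 bp from the pooled summit. The authors' signal for it was 455.9, on a scale that the sources used here do not give, so that signal served for rank only. Act5C stood at place 394 when all genes were ordered by their strongest pooled peak. The summit lay in intergenic DNA, 691 bp upstream of the distal start, and was closer to the start of a noncoding RNA, lncRNA:CR45668, at 181 bp. Which start it belongs to cannot be told from peak lists.

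The second Act5C peak (X:5900279-5900468, summit 5900370) lay 491 bp upstream of the distal start. It ranked 2188, 3739 and 4527 in the replicates, a percentile of 88.4 ± 3.97 (SD, n = 3), within the top 4900 each time. The third (X:5901651-5902060, summit 5901856) lay in an intron, 126 bp upstream of the proximal start. It ranked 2746, 11673 and 2745, with replicate 2 far below the others, a percentile of 80.9 ± 17.2 (SD, n = 3). These peaks made Act5C the 1 member whose own start had an optimal summit no farther than 500 bp away, as 22.9% of all genes had. A pooled summit lay that close to a start at 4 members, Act5C, Act42A, Act57B and Act87E, and at 54.4% of all genes.

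The other 5 pooled peaks of Act5C were below the optimal threshold, at ranks 5217 to 27730. The peak at rank 5217, just below the threshold, lay in the 5′ UTR 77 bp downstream of the proximal start and ranked 7807, 11673 and 8351 in the replicates. In replicate 2 it matched the same peak as the intron peak did. The peak at rank 10355 lay in an exon of lncRNA:CR45668 and ranked 5829, 12604 and 25665. The remaining 3 lay in the Act5C coding exon (rank 15967), in its 3′ UTR (rank 18222) and in the coding exon of the next gene, CG4020 (rank 27730), and each was missing from at least 1 replicate list. The 3′ UTR peak held 6 GAGAG within 100 bp of its summit, the most of any actin peak.

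Act42A (FBgn0000043, 2R:6013910-6015689, minus strand) had an optimal peak only at the edge of its window. That peak (2R:6017467-6017876, summit 6017672, signal 157.1) ranked 1938 in the pooled list and 1332, 2197 and 3673 in the replicates, a percentile of 92.0 ± 3.95 (SD, n = 3). It was within the top 4900 in each replicate. Its summit lay 1983 bp upstream of Act42A and only 67 bp upstream of the start of Pngl, a neighbour on the opposite strand that encodes a peptide N-glycanase. At its own promoter Act42A had a peak (2R:6015588-6015997, summit 6015793) 104 bp upstream of the start, at rank 4972, just below the last optimal rank of 4900. The replicates spread widely there, with ranks of 2931, 4973 and 17224 and a percentile of 72.1 ± 25.8 (SD, n = 3). A peak in the coding exon (rank 8631) ranked 6775 and 10314 in replicates 1 and 3 and was missing from replicate 2. A peak 302 bp past the end of the gene (rank 18230) ranked 6095, 10438 and 16451.

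Among the muscle actin genes, Act87E (FBgn0000046, 3R:13425983-13428375, plus strand), with start sites at 13425983 and 13426447, had the only optimal peak. That peak (3R:13428329-13428738, summit 13428534, signal 100.1) was the optimal peak of the family nearest the threshold. It ranked 5447, 2865 and 5958 in the replicates, so that replicate 2 alone had it in the top 4900, and its percentile was 84.1 ± 5.53 (SD, n = 3). Its summit lay in the 492 bp between the 3′ end of Act87E and that of yrt, and the called peak began inside Act87E. The yrt gene encodes a FERM-domain protein of epithelial polarity and lies on the opposite strand. At the promoter Act87E had weaker peaks 485 bp upstream of the first start (rank 10237) and 218 bp upstream (rank 14879). Their ranks were 8575, 17655 and 13465 for the first and 8466, 17655 and 13465 for the second, which matched the same peak as the first in replicates 2 and 3.

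Act57B (FBgn0000044, 2R:20944021-20946431, plus strand) had 5 pooled peaks and no optimal one. The strongest (summit 20944894, rank 7068) lay in the coding exon and ranked 6236, 14949 and 8384, a percentile of 67.1 ± 15.1 (SD, n = 3). At the promoter, a peak 66 bp downstream of the start in the 5′ UTR (rank 10594) ranked 9104, 13299 and 14869. A peak 282 bp upstream (rank 10927) ranked 16533, 15105 and 14869 and shared its peak in replicate 3 with the one in the 5′ UTR. A peak 377 bp past the gene (rank 11003) ranked 23448 and 6418 in replicates 1 and 2 and was missing from replicate 3. None of the 5 reached the top 4900 of any replicate. The nearest optimal summit was 14759 bp away, by the start of hbn, a homeobox gene.

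Act79B (FBgn0000045, 3L:21985210-21987190, plus strand) had no pooled peak in its window. Its 1 replicate peak, at rank 24393 in replicate 2, lay 1320 bp upstream in the 3′ UTR of the neighbour P5CS, which encodes an enzyme of proline synthesis. The nearest pooled summit was 11648 bp from the gene and the nearest optimal summit 30438 bp. Act88F (FBgn0000047, 3R:15439969-15442177, plus strand) had no pooled peak either. A pooled summit at rank 8620 lay 2003 bp upstream, just outside the window, and the peak that brought Act42A in lay 1983 bp from its gene, just inside. Replicate 1 had 1 peak in the Act88F window (rank 11912), replicate 2 had 2, the stronger in the coding exon (rank 10279), and replicate 3 had none. All but the coding exon peak overlapped a pooled peak with its summit outside the window. The nearest optimal summit to Act88F was 11989 bp away.

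By the strongest peak in the window, whichever it was in each replicate, the order was Act5C, Act42A, Act87E and Act57B. Act5C ranked between 162 and 241 and overlapped no other member. Act42A ranked between 1332 and 3673 and Act87E between 2865 and 5958. These ranges overlapped, although within each replicate Act42A ranked ahead of Act87E, in 3 of 3. Act57B followed with ranks of 6236, 6418 and 8384, a percentile of 76.6 ± 3.97 (SD, n = 3), below all those of Act87E. Act88F and Act79B, with no peak in at least 1 replicate, came last. The places of Act42A and Act87E rest on the peak by the Pngl start and the peak past the Act87E end. Within 500 bp of a start only, Act42A ranked 2931, 4973 and 17224 in replicates 1, 2 and 3. Act57B ranked 9104, 12066 and 14869, and Act87E 8466, 17655 and no peak. There Act5C led at 2188, 3739 and 2745. Act57B came ahead of Act42A in replicate 3 and ahead of Act87E in replicates 2 and 3. A peak in the top 4900 of all 3 replicates lay at 2 members, Act5C and Act42A, and at 29.7% of all genes. At Act42A it was the peak by the Pngl start.

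**Figure D2:**
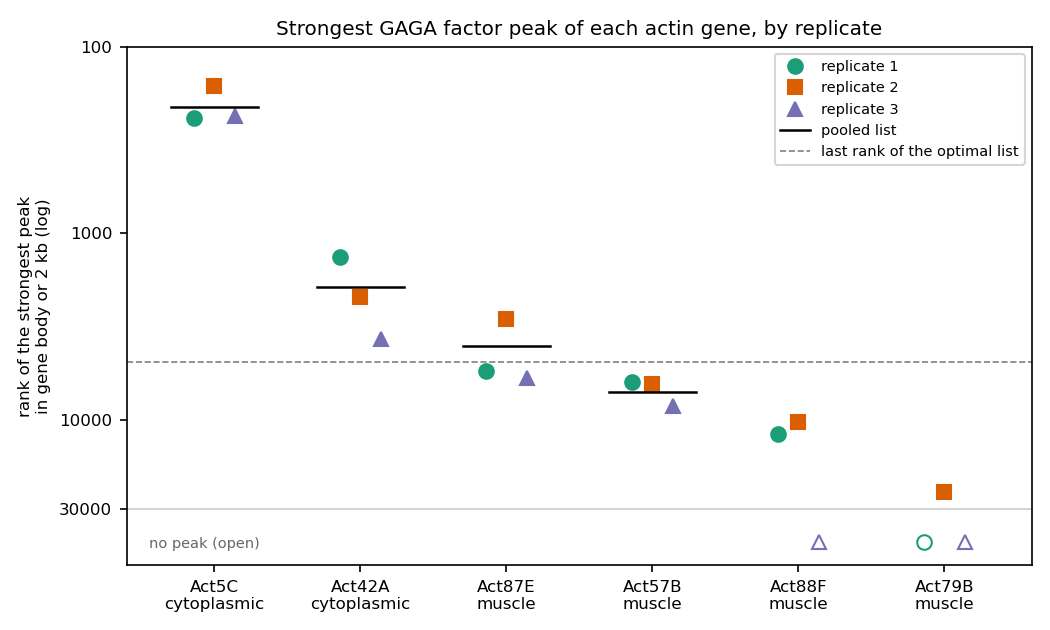
Rank of the strongest GAGA factor peak in the gene body or within 2 kb of each actin gene (y axis, log scale, rank 1 at the top) in replicates 1 to 3, with black lines for the pooled list, a dashed line at rank 4900 and open symbols for no peak. Act5C sits between 162 and 241, Act42A and Act87E overlap between 2865 and 3673, and Act79B has a peak in replicate 2 only.

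The cytoplasmic actin genes ranked ahead of the muscle actin genes in each replicate. The mean log10 rank of the strongest peak was 2.753, 2.776 and 2.967 over Act5C and Act42A in replicates 1, 2 and 3. Over the 4 muscle actin genes it was 4.021, 3.916 and 4.163, with a gene that had no peak set to rank 30001. The difference, cytoplasmic minus muscle, was -1.268, -1.14 and -1.196, with a mean of -1.20 ± 0.064 (SD, n = 3). Its sign was the same in 3 of 3 replicates, and the exact sign-flip permutation test (two-sided) gave p = 0.25, the smallest that 3 replicates allow. The test bears on the spread between replicates of these 6 genes, not on cytoplasmic and muscle genes at large. The value was -0.685 with peaks within 500 bp of a start site only and -0.472 with the gene body only, where neither the Pngl peak nor the strongest Act5C peak counted.

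Across the whole windows, GAGAG on either strand was frequent at Act5C, with 27 matches in 8539 bp or 3.16 per kb, against 1.57 per kb over the 6 chromosome arms. Act57B followed with 2.65 per kb, Act88F with 2.42, Act87E with 1.88, Act79B with 1.34 and Act42A with 0.692. Motif density and peaks did not have the same order. Act88F had 15 matches, 5 of the longer GAGAGAG and no pooled peak, while Act42A had 4 matches and an optimal peak in its window. Both sides of this contrast rest on the window edge. The Act42A peak lay 1983 bp from the gene, by the Pngl start, and a pooled summit lay 2003 bp from Act88F. Inside pooled peaks lay 18 of the 27 matches at Act5C, 9 of the 17 at Act57B, 2 of the 4 at Act42A and 2 of the 12 at Act87E. Within 100 bp of the summit, GAGAG was found at 2 of the 5 optimal actin peaks against 32.6% of all optimal peaks, and at 7 of the 20 pooled actin peaks against 28.9% of all pooled peaks. Both counts are near the background. GAGAGAG was found at 0 of the 5 optimal actin peaks against 11.2% of all optimal peaks, and at 2 of the 20 pooled ones against 6.93%.

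The promoters of the 8 actin start sites, from 250 bases before to 50 after the start, were searched on both strands beside 19607 promoters of all protein-coding genes. GAGAG was in 5 of the 8 and in 33.1% of all promoters, and GAGAGAG in 1 of 8 and in 7.61%. The proximal Act5C promoter held 7 of the GAGAG matches, overlaps counted. TATAAA was in 4 of 8 and in 42.2% of all, and at each of the 4 it began 24 to 32 bp before the start, as a TATA box does. These were the distal start of Act5C, Act57B, the first start of Act87E, and Act88F. The consensus for MEF2, the muscle transcription factor known to act on Act57B, was in 3 of 8 and in 13.2% of all promoters. It began 202 bp before the Act57B start, 158 bp before the first Act87E start, and 130 and 63 bp before the second. The CArG box, the site of serum response factor, was in 2 of 8 and in 1.31% of all promoters, at both Act5C starts, where it began 104 bp before the distal and 179 bp before the proximal one. The latter lies within the Act5C sequence of rank 3500 shown above. The TATCGATA site of DREF was in 0 of 8 and in 7.98%. No MEF2 consensus was found in the cytoplasmic and no CArG box in the muscle actin promoters, and such matches describe letters, not binding.

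Because actin genes are close copies, it was checked whether reads could be shared between them. All 6 proteins, translated from the annotation, have 376 residues. Act5C and Act42A differed at 2 residues and Act57B and Act87E at 3, while Act42A and Act79B differed at 18, an identity of 95.2%. Coding sequences were 84.0% to 91.8% identical, and the longest run shared by a pair was 77 bp, between Act5C and Act87E. Around the summits, every stretch of 36 bases within 100 bp occurred once in the genome at 18 of the 20 pooled peaks, all 5 optimal peaks among them. The exceptions were in coding exons, with 3 of 166 stretches repeated at the Act5C peak of rank 15967 and 7 of 166 at the Act57B peak of rank 24337. Only exact matches were counted, and the parts of a peak farther than 100 bp from its summit were not searched. The count therefore cannot settle whether reads were shared. How long the reads were, and how multiply mapped reads were treated, was not stated in the labels or files.

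The genes whose strongest peak was most like that of Act5C, by Euclidean distance in log10 rank over the 3 replicates, were MED15, CG4297 and CG15465. MED15, a subunit of Mediator, and CG4297 share 1 peak that ranked 211, 150 and 204, at a distance of 0.089. CG15465 ranked 223, 191 and 212, at a distance of 0.09.

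The partners of actin were read from 6 lists of 71 genes in all, of which 44 (62.0%) had an optimal peak in the gene body or within 2 kb, beside 37.7% of all genes. Gene length differs between the lists, and long genes offer a wider window. The median length was 2166 bp over all genes, 2378 bp for the actin-related proteins and 18408 bp for the cross-linkers, and its part in the counts was not tested. The median gene in 4 lists had 1 optimal peak, and the median over all genes was 0.

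Monomer binding and filament turnover had an optimal peak at 7 of 9 genes (77.8%, 95% Clopper-Pearson interval 40.0% to 97.2%). The strongest were at tsr, which encodes cofilin (rank 188, with 219, 215 and 173 in the replicates), at tmod, the tropomodulin that caps filaments (rank 207, with 147, 335 and 239), and at twf, twinfilin (rank 1214). Gel, gelsolin (strongest rank 7742), and qua, a villin-like protein (rank 20501), had no optimal peak. The strongest peaks of tsr, tmod and twf were not within 500 bp of the genes' own starts, while those of Gel and qua were. Within 500 bp of a start the strongest pooled peak ranked 16326 at tsr, 1558 at tmod and 3588 at twf. Divergent actin-related proteins also had 7 of 9 genes (77.8%, 40.0% to 97.2%). That count fell to 2 of 9 with only the optimal peaks above the list's median signal, where all genes stood at 23.4%, and to 3 of 9 with the gene body only, where all genes stood at 12.9%. Arp3, a subunit of the Arp2/3 complex, ranked 440, with 692, 463 and 300 in the replicates, ahead of Bap55, a subunit of the Brahma chromatin remodeller (1739), and Arp2 (2493). Within 500 bp of a start the strongest pooled peak ranked 440 at Arp3, 4034 at Bap55 and 7136 at Arp2. Arp8 of the INO80 remodeller had 5 pooled peaks and no optimal one, the strongest at rank 7841, and Arp1 of dynactin had no pooled peak.

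Nucleation and elongation factors had an optimal peak at 16 of 25 genes (64.0%, 42.5% to 82.0%), Arp2 and Arp3 among them again. The formin gene Fhos led at rank 247, with 277, 424 and 151 in the replicates, and WASp, an activator of the Arp2/3 complex, ranked 646. Arpc1 (strongest rank 16236) and Arpc2 (7455), further subunits of that complex, had no optimal peak. Cross-linkers and non-muscle motors had 10 of 15 genes (66.7%, 38.4% to 88.2%), led by Vinc, vinculin (358), jar, myosin VI (613), and Actn, alpha-actinin (1023). Within 500 bp of a start the strongest pooled peak ranked 358 at Vinc, 613 at jar and 3687 at Actn. The alpha-catenin gene alpha-Cat had no pooled peak, and beta-Spec, spectrin, had 6 pooled peaks and no optimal one, the strongest at rank 7157.

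Thin filament partners in muscle had an optimal peak at 2 of 9 genes (22.2%, 2.81% to 60.0%) and a median of 0, the same median as all genes. Tm1, a tropomyosin gene with products in muscle and other cells, had 4 optimal peaks, the strongest at rank 2061, with 2853, 1746 and 1740 in the replicates. TpnC47D, a troponin C gene, had 1 at rank 4769 and no pooled peak within 500 bp of a start. The muscle tropomyosin gene Tm2 had 7 pooled peaks and no optimal one, the strongest at rank 8346, and 3 troponin C genes, TpnC25D among them, had no pooled peak. Transcription factors known to act on actin or muscle genes had 4 of 6 (66.7%, 22.3% to 95.7%) and a median of 1.5 peaks, at a median length of 39488 bp. Mef2 had 7 optimal peaks and the strongest peak of all genes named here, at rank 15, with 15, 19 and 12 in the replicates. Next were bs, which encodes serum response factor (1139), and sd, the partner of vestigial (1919), while twi (strongest rank 5724) and vg (14535) had no optimal peak. Within 500 bp of a start the strongest pooled peak ranked 3596 at Mef2, 1373 at bs and 1919 at sd.

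**Figure D3:**
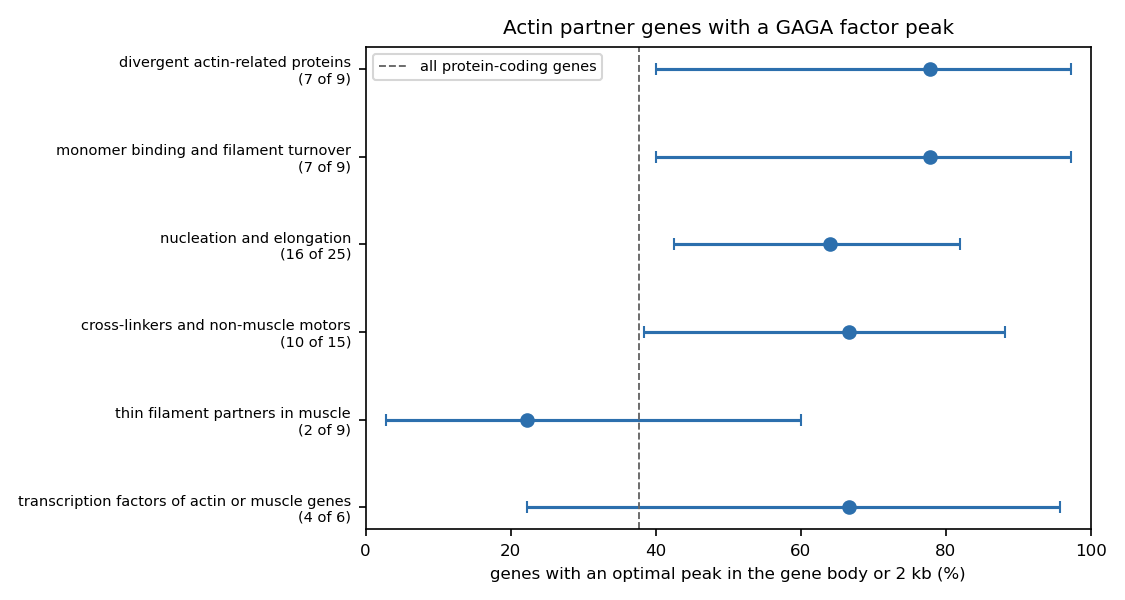
Share of genes in each list of actin partners with an optimal GAGA factor peak in the gene body or within 2 kb (x axis, percent), with 95% Clopper-Pearson intervals that cover counting error only and a dashed line at 37.7%, the share of all protein-coding genes. Thin filament partners in muscle lie lowest, at 22.2%, and the highest lists lie at 77.8%. The lists were chosen with earlier results of these data known, and the line is not matched for gene length. The intervals therefore do not test a difference from the line.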

How the data were processed

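Sonicated chromatin was sized at 200 to 800 bp, per the labels. The authors deposited dm6 peak lists for each replicate, for all 3 pooled, and for those passing a threshold on the irreproducible discovery rate (IDR), the optimal list. The other lists also contain background regions meant as IDR input, per text notes deposited with them. The aligner and the caller used were not stated in the sources used here. Each peak carries a signal value deposited by the authors, which set its rank. The −log10 q-value is also the authors' deposited value, and was 3.49 to 3.97 in the optimal list. Read depth is unknown, since the lists hold no totals. Neither dm3 lists nor a control IP entered the results. The optimal list equals the top 4900 pooled peaks by signal.

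Members and lists were chosen with earlier results of these data known, and the CArG box was added after the other motifs. Genes came from Ensembl release 115 and sequences from the RefSeq Release 6 genome, the same assembly. A pooled peak was matched in a replicate to the overlapping peak (at least 1 bp) with the nearest summit, a choice made after the data were seen. Percentiles are 0 without a match. Clopper-Pearson intervals cover counting error only. Per list, the text names up to 3 genes with the strongest optimal peak and up to 2 without one in alphabetical order, beside all members, the genes at the nearest starts and the 3 genes most like Act5C. All 71 list symbols were found. Other windows, peak lists, motif lengths and omitted replicates were tried. Scripts used Python 3.11.15, pandas 2.3.3, numpy 2.4.6 and scipy 1.17.1, and the counting was tested on simulated data.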

Additional observations from a re-analysis of the deposited data

How the results depend on the processing

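No paired analysis was possible because all replicates belong to 1 group, which leaves no second group to pair with. The cytoplasmic minus muscle difference was itself taken within each replicate. With the gene body only, 1 actin gene had an optimal peak (3 with 2 kb), 1 optimal peak was counted (5), 12.9% of all genes had one (37.7%) and 25 partner genes did (44). With the gene body and 500 bp, 3 optimal peaks were counted. With only the optimal peaks above that list's median signal, 2 peaks lay at actin genes, 0 members had one within 500 bp of a start (1), 23.4% of all genes had a peak and 28 partner genes did. With all pooled peaks, the counts were 20 peaks, 4 members near a start, 79.1% of all genes and 7 peaks with GAGAG. Members near a start numbered 0 within 100 bp and 2 in the top 4900 of replicate 1. GAGAG was at 1 optimal peak within 50 bp and GAGAGAG at 0 (2). Leaving out each replicate in turn, members with an optimal peak found in the top 4900 of the remaining replicates numbered 2 each time, and the cytoplasmic minus muscle difference ranged from -1.232 to -1.168 (exact permutation p = 0.5, the smallest that 2 replicates allow). The percentile of the strongest pooled peak ranged from 99.2 to 99.3 for Act5C, 90.2 to 94.1 for Act42A, 81 to 86.2 for Act87E and 61.1 to 75.6 for Act57B. Of 123 alternatives, 28 moved (a count by over 1.5 times, or an untested value by over 1 SD), 0 reversed and 95 did neither. The tested cytoplasmic minus muscle difference was judged on sign and threshold alone, so -0.685 near start sites and -0.472 in the gene body are among the 95 although each lies well over 1 SD from -1.20. The background with genes of like length was added after the data were seen. Without read counts, a peak missing from a list cannot be told from one too weak to be called.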

Other observations

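The pooled peak at rank 24337 in the Act57B coding exon had no overlapping peak in any replicate list. Peaks with no pooled counterpart were found in the Act5C coding exon in replicate 2 (rank 14950) and in the coding exon of its neighbour CG4020 in replicate 1 (rank 13502).

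Taken by the gap between gene bodies, 10 protein-coding genes lay within 5 kb of an actin gene. Of these, 8 had a pooled peak within 500 bp of their own start, against 54.4% of all genes. The strongest such peak ranked 2475 at CG12236 and 27730 at CG4020, both beside Act5C, 1938 at Pngl, 11850 at Src42A and 23840 at Strica, all beside Act42A, 5056 at AdamTS-A, a metalloprotease gene that ends 69 bp from Act88F, 7990 at yrt beside Act87E and 15562 at P5CS beside Act79B. CG33704 beside Act57B and Ir87a beside Act87E had none. The start of a neighbour can lie far from the actin gene. P5CS ends 604 bp from Act79B, but the pooled summit nearest to Act79B was 11648 bp away. The peaks at Pngl and CG4020 are the ones already counted at Act42A and Act5C.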
